A study of Mus musculus with 16 samples.

Results

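The genes described here are 9 genes with high expression in the choroid plexus: Ttr, Sostdc1, Enpp2, Kl, Folr1, Clic6, Kcnj13, Aqp1 and Otx2. They were taken by symbol from count tables that list 43472 gene symbols, and all 9 were found. Their levels were followed in 16 libraries of total RNA from mouse brain, in 4 groups of 4: Prepl knockout mice, wild types kept as their controls, mice in which the Prader-Willi syndrome imprinting centre was deleted (PWS-IC deleted), and wild types kept as controls for those. Prepl encodes a serine hydrolase whose loss underlies a congenital myasthenic syndrome, and the imprinting centre switches on a group of neighbouring genes that only the paternal chromosome expresses. The study asked whether the brains of the 2 models are alike, and each mutant is compared here with its own wild types. The labels give only tissue and genotype; they do not name strain, age or the part of the brain taken. Xist and Y-linked reads put 3 female and 1 male library in the Prepl wild types, 4 male libraries in the knockouts, and 2 of each sex in both PWS-IC groups. Nothing in the labels says that replicates are separate animals. The groups with both sexes hold more than 1 animal each, and within every group the libraries differed by more than counting noise (chi-square per degree of freedom 2.52 to 7.87). How much of the spread behind the p-values is technical was not tested.

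The choroid plexus is a sheet of secretory epithelium around a fenestrated capillary core that hangs into the brain ventricles and makes most of the cerebrospinal fluid. Its cells move sodium, chloride, bicarbonate and water from blood to ventricle, and they secrete carrier proteins and signalling factors into the fluid. The tissue is a tiny part of the brain, so its transcripts in a brain library depend on how much of it was in the piece of tissue taken. In bulk RNA of this kind, fewer epithelial cells and less RNA per cell cannot be told apart.

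Libraries held 3477624 to 5852716 reads in genes, and levels are given as reads scaled to 1000000 of these (CPM). The libraries read the poly(A) end of each transcript, so a gene's count does not grow with transcript length. Of all reads of the 9 genes, Ttr took between 76.7% and 92.1% in each library. The targeted genes followed the labels. Prepl was at 34.8 ± 1.35 CPM in its wild types and 1.64 ± 0.453 in the knockouts (SD, n = 4). In the same way Ndn, a gene of the Prader-Willi region, was at 4.30 ± 1.90 CPM in the deleted libraries and 556 ± 11.1 in their wild types. All 9 genes had reads in every group, as did the further markers of this epithelium Kcne2, Slc4a5, Prlr, Cldn2 and Tmem72. Of 8 genes of retinal pigment epithelium and pineal gland, Rpe65 and Asmt had no read in any library, Rgr and Aanat had reads in 2 groups each, and Tph1, Rlbp1, Best1 and Crx had reads in every group. This list summed to 13.5 to 28.9 CPM in a library.

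In the PWS-IC deleted group, 3 of the 8 genes that passed the filter on low counts fell against their wild types: Ttr, Sostdc1 and Enpp2. All 8 fitted differences lay below 0, with a median log2 fold change of -0.85 against -0.014 over all 13636 genes tested. At an unadjusted p under 0.05 by edgeR were 6 of the 8, and 2483 of all 13636 genes. Genes called in either direction made up 4.52% of all genes tested, and those called lower 1.55%. The group was not uniform. For 7 of the 9 genes, all but Kl and Otx2, deleted replicates 1, 2 and 3 each lay below every wild type of their set. Over all genes tested, 7.66% had replicates 1, 2 and 3 below every wild type. Replicate 4 lay within the wild type range for a different 7 of the 9. It was below that range for Sostdc1 and above it for Kcnj13. No share over all genes was computed for replicate 4. In the Prepl knockouts none of the 8 genes tested was called (edgeR's quasi-likelihood test, with 2 at an unadjusted p under 0.05), where 0.262% of all genes were. Of all 13722 genes in that fit, 1294 were at an unadjusted p under 0.05.

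**Figure D1:**
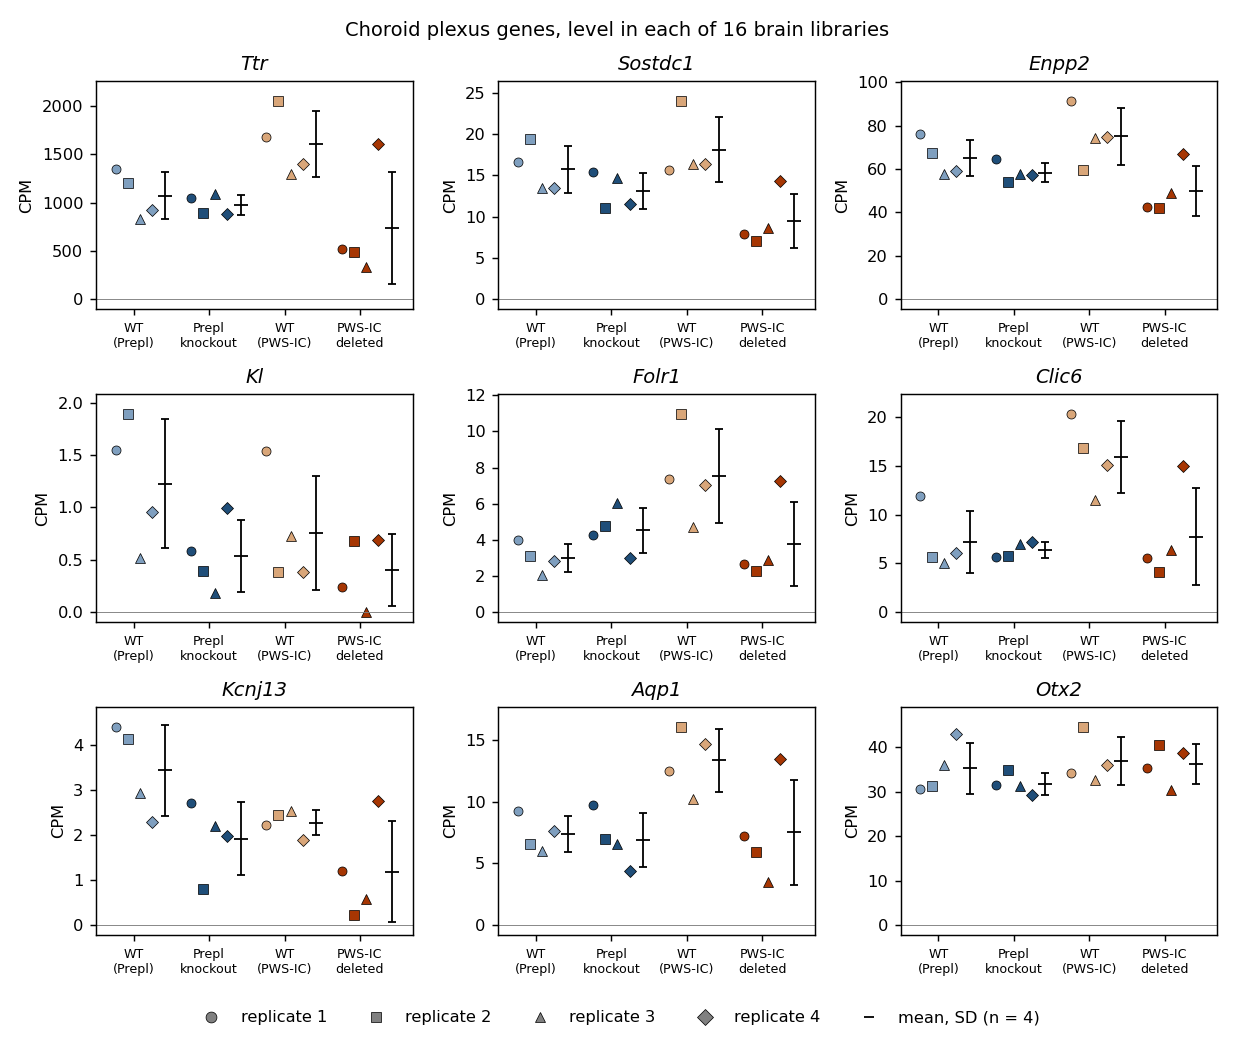
Level of each of the 9 genes in CPM (linear axes) in the 16 libraries, by group; marker shape is the replicate number and the bar is mean and SD over 4 libraries. In Ttr, deleted replicate 4 stands at 1607 CPM, within the wild type range of 1297 to 2055, while the other deleted libraries stand at 334 to 521.

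Ttr encodes transthyretin, the thyroxine carrier that the choroid plexus secretes into the cerebrospinal fluid. The gene lies on chromosome 18 of GRCm38, from 20665280 to 20674321 on the plus strand. Ttr was at 1681, 2055, 1297 and 1404 CPM in the PWS-IC wild types. In deleted replicates 1 to 4 it was at 521, 492, 334 and 1607 CPM. Replicates 1, 2 and 3 were the 3 lowest of all 16 libraries, below the 828 to 1345 CPM of the 8 libraries of the Prepl set, and replicate 4 was above each of those 8. The groups overlapped through replicate 4 alone. The fitted log2 fold change was -1.12 ± 0.306 (SE), a 2.18-fold lower level, with an adjusted p of 0.0400 (edgeR's quasi-likelihood test, Benjamini-Hochberg over all genes). DESeq2 did not call it (adjusted p = 0.328). Without deleted replicate 4, left out after its values were seen, the log2 fold change was -1.83 with an adjusted p of 5.53e-07 by edgeR. Over all 8 fits that each left out 1 library, Ttr passed in 2 and missed in 6 (adjusted p up to 0.124, edgeR).

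Sostdc1 encodes a secreted protein that binds bone morphogenetic proteins and blocks Wnt co-receptors. It lies on chromosome 12, 36314139 to 36318452, plus strand. The 4 wild types stood at 15.7, 24.0, 16.4 and 16.4 CPM and the 4 deleted libraries at 7.94, 7.07, 8.63 and 14.3 CPM. This was the only 1 of the 9 genes whose groups did not overlap, as replicate 4 was also under the lowest wild type; 11.8% of all genes tested had no overlap in either direction. The log2 fold change was -0.90 ± 0.222 (SE) with an adjusted p of 0.0234 in edgeR's test.

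Enpp2 encodes autotaxin, a secreted enzyme that makes the signalling lipid lysophosphatidic acid; oligodendrocytes make it as well as the choroid plexus. It lies on chromosome 15, 54838901 to 54952892, minus strand. The wild types stood at 91.4, 59.6, 74.4 and 74.8 CPM of Enpp2, and deleted replicates 1 to 4 at 42.3, 42.2, 48.9 and 66.8 CPM. Only replicate 4 reached into the wild type range. The log2 fold change of -0.57 ± 0.141 (SE) was the smallest of the 3 called, with an adjusted p of 0.0237 in edgeR's test. Of 6 oligodendrocyte genes tested in the same fit 1 fell, the myelin enzyme gene Cnp (log2 fold change -0.56 ± 0.142), and their median was -0.26; the part of this in the Enpp2 result was not tested.

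Folr1 encodes folate receptor alpha, which carries folate across this epithelium. It lies on chromosome 7, 101858331 to 101870788, minus strand, and its span crosses that of Anapc15 on the other strand without shared exons. Its levels were low, with 26 to 58 reads per wild type library and 10, 10, 11 and 42 reads in the deleted ones. In CPM, the wild types were at 7.35, 11.0, 4.73 and 7.04 and deleted replicates 1 to 4 at 2.65, 2.28, 2.88 and 7.25. Replicate 4 stood between the wild types, and the other 3 below all of them. The log2 fold change was -0.93 ± 0.347 (SE) and missed the threshold (adjusted p = 0.146, edgeR).

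Kl encodes klotho, a membrane protein that is also shed into the fluid and serves as co-receptor for a fibroblast growth factor. It lies on chromosome 5, 150952607 to 150993817, plus strand. Kl failed the filter in every comparison and was not tested. The PWS-IC wild types held 9, 2, 4 and 2 reads of it and deleted replicates 1 to 4 held 1, 3, 0 and 4. The library with no read, deleted replicate 3, allows up to 0.863 CPM (3 reads; counting error only). In the Prepl set there were 7, 11, 3 and 5 reads in the wild types and 3, 2, 1 and 5 in the knockouts, and the groups overlapped in both sets.

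Clic6, Kcnj13 and Aqp1 serve transport of ions and water. Clic6 encodes a chloride intracellular channel family protein (chromosome 16, 92485736 to 92541243, plus strand). The wild types were at 20.33, 16.85, 11.47 and 15.04 CPM and deleted replicates 1 to 4 at 5.53, 4.10, 6.33 and 15.01 CPM. Again replicate 4 alone reached the wild types. The log2 fold change of -0.98 ± 0.294 (SE) lay just outside the threshold (adjusted p = 0.0621, edgeR), and DESeq2 put it just inside (adjusted p = 0.0464).

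Aqp1 encodes aquaporin 1, the water channel of the ventricular face of the epithelium, which red blood cells also carry (chromosome 6, 55336432 to 55348555, plus strand). The wild types were at 12.5, 16.1, 10.2 and 14.7 CPM and the deleted libraries at 7.22, 5.93, 3.45 and 13.5 CPM. The log2 fold change of -0.76 ± 0.282 (SE) did not pass (adjusted p = 0.140, edgeR). The globin genes were low in all 4 deleted libraries, replicate 4 included: the summed level of 6 red cell genes was 1265 CPM there and 1266 to 1707 in the other deleted libraries, against 1869 to 4049 in the wild types. The part of red cells in the Aqp1 values was not tested.

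Kcnj13 encodes the inward rectifier potassium channel Kir7.1 of the ventricular membrane (chromosome 1, 87386363 to 87394729, minus strand). It lies inside Gigyf2, which is read from the other strand and shares exon sequence with it; whether reads were counted by strand is not given in the sources used here, so reads of this pair may not have been told apart. Wild types held 13, 13, 14 and 10 reads and deleted replicates 1 to 4 held 5, 1, 2 and 16. In CPM, replicate 4 at 2.76 was above the highest wild type at 2.55. The log2 fold change was -0.80 ± 0.492 (SE), with an adjusted p of 0.421 in edgeR's test, and it was -1.72 without replicate 4, still outside the threshold (adjusted p = 0.0954).

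Otx2, a homeodomain transcription factor needed to form and maintain the choroid plexus, lies on chromosome 14, 48657677 to 48673819, minus strand. Otx2 is also expressed by neurons of the thalamus and midbrain. Its level was 34.2, 44.7, 32.8 and 36.0 CPM in wild types and 35.4, 40.6, 30.5 and 38.8 CPM in deleted replicates 1 to 4. The groups overlapped fully, with a log2 fold change of -0.01 ± 0.134 (SE; adjusted p = 0.980, edgeR), and replicate 4 did not stand out. Set against Ttr in the same library, there were 20.3 to 25.6 Otx2 reads per 1000 Ttr reads in the wild types. The same ratio was 67.9, 82.4 and 91.3 in deleted replicates 1, 2 and 3, and 24.2 in replicate 4. Otx2 overlaps the antisense transcript Otx2os1, which had 130 reads over all 16 libraries.

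Promoter sequence from RefSeq (GRCm38.p6, 250 bases before and 50 after the start) was searched for 4 of the 9 genes. These were Kcnj13, Kl, Aqp1 and Otx2, and Ttr was not part of this search. Kcnj13 and Aqp1 are printed as genes that stood low together in deleted replicates 1, 2 and 3, and Otx2 as the gene that did not. All are written 5′ to 3′ along the gene. Capitals mark 3 motifs searched on both strands: TAATCC, the core bound by Otx factors, then the TATA box TATAAA, and last CCAAT. Where the motif is on the other strand the capitals read GGATTA in place of the Otx core, TTTATA in place of the TATA box and ATTGG in place of the CCAAT box.
Kcnj13, chr1:87394680-87394979, minus strand: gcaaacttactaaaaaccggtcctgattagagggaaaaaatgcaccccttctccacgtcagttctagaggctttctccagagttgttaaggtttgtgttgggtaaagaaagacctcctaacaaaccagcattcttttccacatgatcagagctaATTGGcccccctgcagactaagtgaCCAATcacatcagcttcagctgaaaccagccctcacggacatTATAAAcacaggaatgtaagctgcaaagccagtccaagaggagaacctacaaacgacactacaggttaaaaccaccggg
Aqp1, chr6:55336049-55336348, plus strand: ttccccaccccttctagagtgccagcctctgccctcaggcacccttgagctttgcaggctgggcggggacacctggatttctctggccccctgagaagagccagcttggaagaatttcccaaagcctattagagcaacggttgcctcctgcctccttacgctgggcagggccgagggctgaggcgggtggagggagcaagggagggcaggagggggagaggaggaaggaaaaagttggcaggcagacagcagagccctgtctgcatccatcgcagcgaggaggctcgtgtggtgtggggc
Otx2, chr14:48665060-48665359, minus strand: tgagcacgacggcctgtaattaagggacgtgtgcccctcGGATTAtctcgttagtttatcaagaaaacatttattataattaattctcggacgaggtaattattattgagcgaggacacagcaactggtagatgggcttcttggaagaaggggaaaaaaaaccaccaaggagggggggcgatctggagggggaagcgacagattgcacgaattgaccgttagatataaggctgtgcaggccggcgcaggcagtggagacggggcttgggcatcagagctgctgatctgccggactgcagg

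The Kcnj13 window held a TATA box that begins 29 bases before the start and CCAAT boxes that begin 71 and 96 bases before it. The Aqp1 and Kl windows held none of the 3 motifs. Of the 4 Otx2 windows in the table, 1 for each start, the window printed held the Otx core, 211 bases before the start. Of the other 3 Otx2 windows, 1 held a TATA box 192 bases before its start, 1 held CCAAT 70 bases before its start, and the last held none of the motifs. Over all 32851 mouse promoter windows of 300 bases, 7.06% held the Otx core, 13.6% the TATA box and 37.4% CCAAT. These matches describe letters in a window and say nothing of which factor is bound there.

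**Figure D2:**
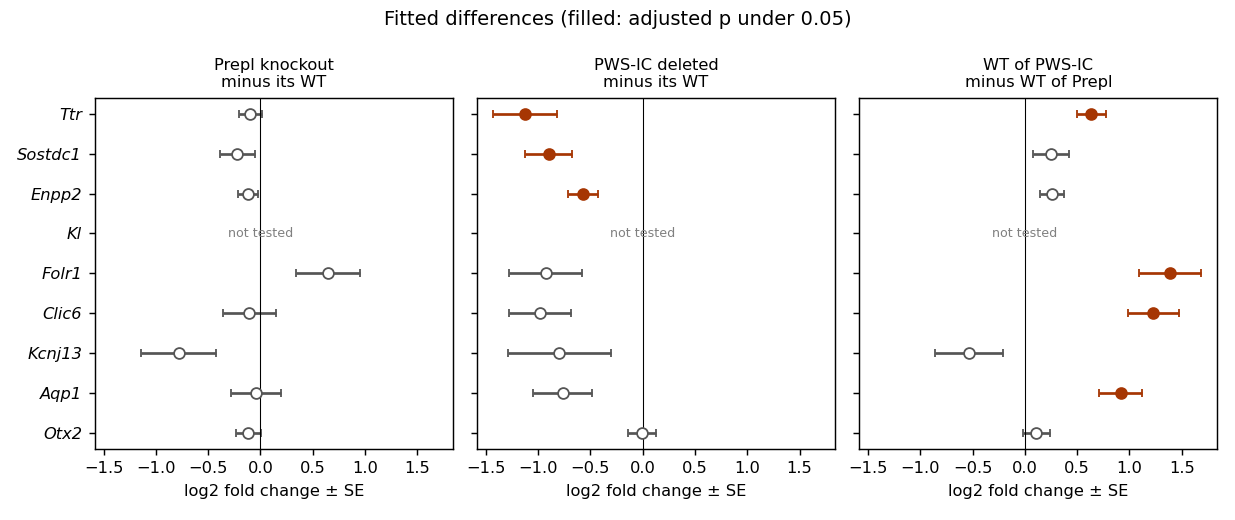
Fitted log2 fold change with its SE for 8 genes in 3 comparisons of 4 against 4 libraries; filled points passed the threshold over all genes. Ttr, Sostdc1 and Enpp2 are filled and below 0 in the PWS-IC deleted comparison, none is filled in the Prepl knockout, and Ttr, Folr1, Clic6 and Aqp1 are filled and above 0 between the 2 wild type groups.

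Which genes were called in the PWS-IC deleted group depended on which libraries were in the fit. Without deleted replicate 4, 6 of the 8 genes fell: Ttr, Sostdc1 (log2 fold change -1.19), Enpp2 (-0.75), Folr1 (-1.52, adjusted p = 0.0190), Clic6 (-1.58, adjusted p = 0.00145) and Aqp1 (-1.23, adjusted p = 0.0130), all by edgeR. Otx2 stayed near 0, at -0.04. Without deleted replicate 1, 2 or 3 in turn, none of the 8 was called. Without wild type replicate 1, 2 or 4, 1 gene was called, and without wild type replicate 3, 4 genes were. The fitted differences of the 7 genes other than Otx2 stayed below 0 in all 8 such fits.

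**Figure D3:**
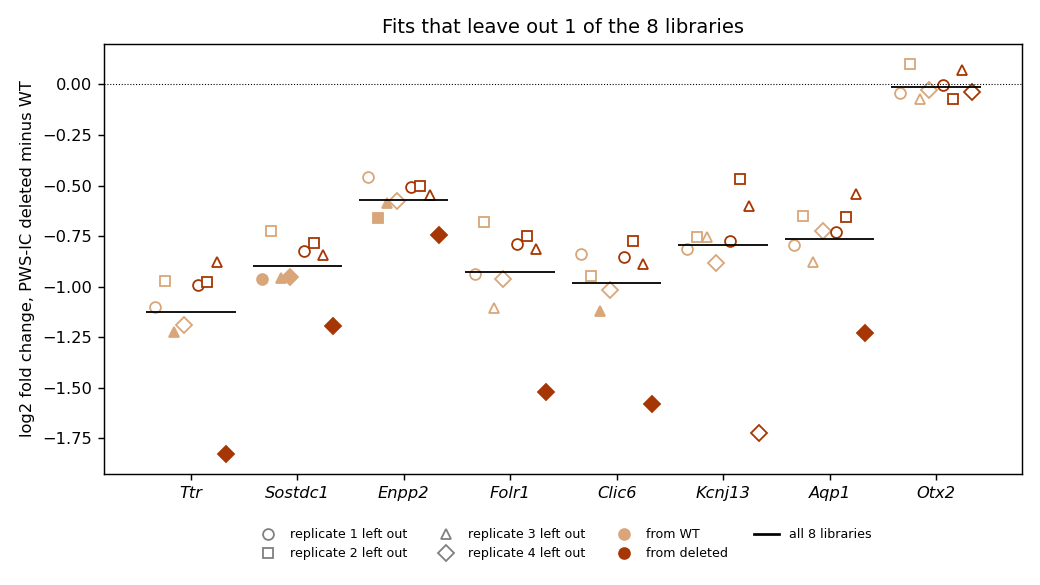
Fitted log2 fold change of PWS-IC deleted against wild type for 8 genes when 1 of the 8 libraries is left out; shape is the replicate left out, colour its group, filled points passed the threshold and the line is the fit of all 8. Leaving out deleted replicate 4 gives the lowest value for 7 genes, with Ttr at -1.83.

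Deleted replicate 4 carried the deletion by its own transcripts. Ndn was at 6.56 CPM and Snrpn, the gene at the imprinting centre, at 28.1 CPM in it, while the wild types of its set stood at 543 to 566 and 327 to 361 CPM. It is female, as is replicate 3, and replicates 1 and 2 are male. It was the deepest deleted library, with 5795674 reads in genes against 3477624 to 4386436 in the other 3. The share of tabled reads that fell outside genes was 18.7% in it, within the 17.7% to 20.1% of its group. That share was 19.1% ± 1.15 in the deleted group and 12.3% ± 1.03 in its controls (SD, n = 4), a difference of 6.80 percentage points (exact two-sided permutation test p = 0.0286, the smallest this design allows; 0.0572 after adjustment over 2 comparisons). With this share as a covariate none of the 8 genes was called and the fitted values of Ttr, Aqp1 and Otx2 turned positive, at 0.10, 0.42 and 0.77. No deleted library overlapped a wild type in this share, so it and the genotype cannot be told apart.

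In the Prepl knockouts no gene passed. Ttr was at 1345, 1200, 828 and 925 CPM in the wild types and at 1052, 894, 1088 and 884 CPM in the knockouts, with a log2 fold change of -0.10 ± 0.108 (SE; adjusted p = 0.834, edgeR). Sostdc1 was at 15.8 ± 2.87 and 13.2 ± 2.17 CPM, and Enpp2 at 65.0 ± 8.40 and 58.4 ± 4.40 CPM (SD, n = 4). For all 9 genes the groups overlapped, where 5.69% of all genes tested did not, and the median log2 fold change of 8 was -0.11 against 0.0003 over all genes.

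Of the 8 genes tested, the 2 furthest from 0 in the Prepl comparison lay on opposite sides. Folr1 was at 3.98, 3.10, 2.07 and 2.86 CPM in the wild types and at 4.28, 4.76, 6.05 and 2.98 CPM in the knockouts, a log2 fold change of 0.65 ± 0.302 (SE; adjusted p = 0.514, edgeR). Kcnj13 was at 4.42, 4.13, 2.93 and 2.29 CPM in the wild types and at 2.73, 0.794, 2.20 and 1.99 CPM in the knockouts, a log2 fold change of -0.78 ± 0.359 (SE; adjusted p = 0.507, edgeR). Both pairs of groups overlapped and neither gene passed. Clic6, Aqp1 and Otx2 had log2 fold changes of -0.11, -0.04 and -0.12. The knockouts are all male and 3 of their 4 wild types female; with a term for sex the fitted values of Ttr, Enpp2 and Clic6 turned positive, at 0.11, 0.01 and 0.10, and none was called.

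Tested directly, the difference between the 2 mutant effects passed for none of the 8 genes (edgeR's quasi-likelihood test on 16 libraries, 5 at an unadjusted p under 0.05), where 0.778% of all genes were called. Of all 14392 genes in that fit, 1678 were at an unadjusted p under 0.05. The difference, PWS-IC effect minus Prepl effect, was -1.02 ± 0.365 (SE) for Ttr with an adjusted p of 0.225. For Folr1 it was -1.57 ± 0.478 with an adjusted p of 0.143. Without deleted replicate 4, left out after its values were seen, these 2 genes passed, Ttr at -1.72 (adjusted p = 4.95e-06, edgeR) and Folr1 at -2.16 (adjusted p = 0.0181, edgeR). Of 16 fits that each left out 1 library, this was the only 1 in which either passed. In the other 15, adjusted p reached 0.383 for Ttr and 0.277 for Folr1 (edgeR).

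The 2 wild type groups differed from each other in these genes. Clic6, Folr1, Ttr and Aqp1 were higher in the wild types of the PWS-IC set than in those of the Prepl set. Genes called in either direction made up 23.8% of all genes in this comparison, and those called higher 11.8%. Ttr was at 1609 ± 338 CPM in PWS-IC wild types and 1075 ± 240 in Prepl wild types (SD, n = 4), a log2 fold change of 0.64 ± 0.137 (SE; adjusted p = 0.00176, edgeR). Clic6 was at 15.9 ± 3.69 and 7.18 ± 3.20 CPM, a log2 fold change of 1.23 ± 0.243 (adjusted p = 0.000804, edgeR). Folr1, at 7.53 ± 2.58 and 3.00 ± 0.786 CPM, and Aqp1, at 13.4 ± 2.58 and 7.37 ± 1.44 CPM, did not overlap between the groups, as did 24.7% of all genes. Sostdc1, Enpp2, Kcnj13 and Otx2 did not pass, with log2 fold changes of 0.25, 0.26, -0.53 and 0.11. The 4 calls held in all 8 fits that left out 1 library. The sets may have been dissected or sequenced apart, which the labels do not say, so set and batch cannot be told apart.

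The deleted libraries were also set beside the Prepl set by level alone, with no fit. Ttr, Sostdc1 and Enpp2 in deleted replicates 1, 2 and 3 lay below all 8 libraries of the Prepl set. Folr1 in those 3 replicates, at 2.28 to 2.88 CPM, lay within the 2.07 to 6.05 CPM of the Prepl set. Clic6, Aqp1 and Kcnj13 lay partly within and partly below it. Otx2 lay within it in all 4 deleted libraries.

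The 9 genes were then followed against Ttr across the 16 libraries with group means removed, on the log2(CPM + 1) scale. All 8 correlations were above 0, and 5 passed a permutation test (100000 shuffles within groups, two-sided, Benjamini-Hochberg over 8 relations). Aqp1 followed Ttr with r = 0.84 (adjusted permutation p = 0.00696) and Spearman's rho = 0.68 (0.0165). Folr1 had r = 0.83 (0.00696) and rho = 0.84 (0.00128), and Sostdc1 r = 0.79 (0.0179) and rho = 0.71 (0.0165). Clic6 had r = 0.77 (0.0465) and rho = 0.66 (0.0372), and Kcnj13 r = 0.75 (0.0282) and rho = 0.67 (0.0165), all adjusted permutation p-values. With 0.25 in place of 1 added to the CPM, Clic6 and Kcnj13 did not pass (adjusted permutation p = 0.0625 and 0.0656). Enpp2 (r = 0.58, 0.166; rho = 0.44, 0.203), Kl (r = 0.41, 0.166; rho = 0.39, 0.204) and Otx2 (r = 0.25, 0.459; rho = 0.12, 0.716) did not pass the same permutation test.

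The library farthest from the median of Ttr was deleted replicate 4, followed by deleted replicate 3. With both left out, r was 0.81 for Sostdc1, 0.84 for Folr1, 0.66 for Clic6, 0.51 for Kcnj13 and 0.58 for Aqp1, and 0.24 for Enpp2, 0.25 for Kl and -0.06 for Otx2. Without replicate 4 alone, Folr1 (r = 0.65) and Aqp1 (r = 0.70) passed, each with an adjusted permutation p of 0.0465, and the other 6 did not. Sostdc1 then had r = 0.58, Kcnj13 0.46, Clic6 0.42 and Enpp2 0.04. The relations of Sostdc1, Clic6 and Kcnj13 to Ttr rest in part on that library.

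**Figure D4:**
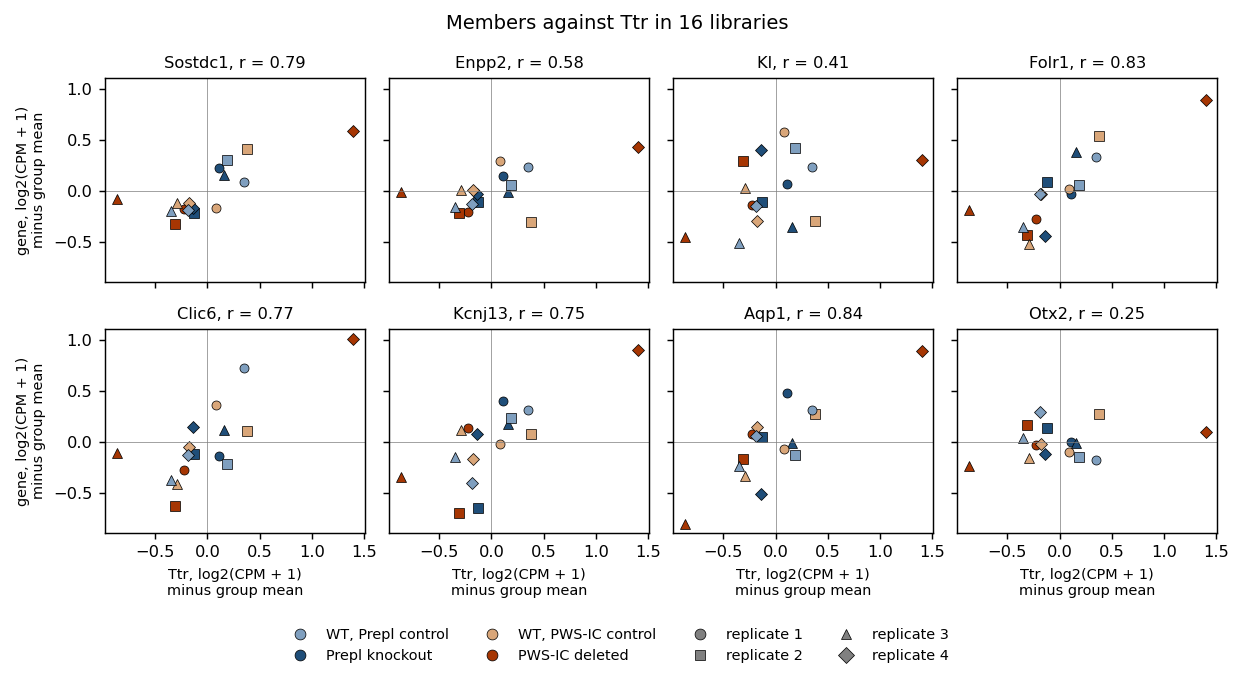
Deviation of each gene from its group mean against that of Ttr, log2(CPM + 1), in 16 libraries; colour is the group, shape the replicate. Deleted replicate 4 lies at the far right in each panel, and the points of Aqp1 (r = 0.84) and Folr1 (r = 0.83) rise with Ttr while those of Otx2 (r = 0.25) do not.

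Among 13190 genes ranked by this correlation with Ttr, Aqp1 came 3rd, Folr1 6th, Sostdc1 14th, Clic6 20th and Kcnj13 26th, whereas Enpp2 came 223rd and Otx2 2534th. The 8 other genes most like Ttr were 1500015O10Rik (r = 0.87), March1 (0.87), Slc17a6 (0.84), Dlgap3 (0.83), Nfatc2ip (0.82), Srprb (0.82), Fxyd1 (0.82) and Hsdl2 (0.82). 1500015O10Rik, which encodes the secreted protein augurin made by this epithelium, was at 11.5, 11.9, 7.19 and 22.1 CPM in deleted replicates 1 to 4 and at 21.2 ± 3.39 CPM in the wild types (SD, n = 4). Fxyd1, a regulator of the sodium pump, was at 4.81, 3.19, 3.16 and 8.11 CPM against 9.47 ± 2.69. Slc17a6 encodes the glutamate transporter VGLUT2 of thalamic and midbrain neurons, a gene of another cell type. Without deleted replicate 4, r was 0.80 for 1500015O10Rik, 0.76 for Fxyd1, 0.74 for Nfatc2ip, 0.60 for Dlgap3 and Hsdl2, 0.59 for March1, 0.57 for Srprb and 0.42 for Slc17a6. All 8 values share the same 16 libraries and are given as a description.

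A list of 39 further genes of the choroid plexus epithelium, all found in the files, gave no call in either mutant. In the PWS-IC deleted comparison 31 could be tested, 27 lay below 0 and the median log2 fold change was -0.27 against -0.014 over all genes. By edgeR, 9 of the 31 were at an unadjusted p under 0.05, 8 of them lower. So were 2483 of all 13636 genes, in either direction. Deleted replicates 1, 2 and 3 each lay below every wild type for 11 of the 39, and for 9 of these 11 replicate 4 reached the wild type range or passed it. Over all genes tested, 7.66% had replicates 1, 2 and 3 below every wild type. The 11 include Steap1, Cldn2 and Prr32, which had too few reads to be tested, so the 2 shares cover unlike sets of genes. No such share was computed for replicate 4. Kcne2, a potassium channel subunit of the epithelium, was at 3.79 ± 1.28 CPM in wild types and 1.44 ± 1.05 CPM in deleted libraries (SD, n = 4; adjusted p = 0.102, edgeR). Prlr, the prolactin receptor, lay on the other side, at 8.77 ± 1.40 and 12.2 ± 1.68 CPM (adjusted p = 0.191, edgeR). In the Prepl comparison 28 were tested, 18 lay below 0 and the median was -0.09. Between the wild type groups, where 11.8% of all genes were called higher, 5 of 33 were higher in the PWS-IC set, among them Krt18, an epithelial keratin gene (log2 fold change 1.52 ± 0.376). The 39 genes summed to 560 to 709 CPM in PWS-IC wild types and to 485 to 591 CPM in deleted libraries.

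Genes that work with the 9, grouped by pathway, gave no call in either mutant by edgeR. These were 14 genes of ion and water transport (12 tested), 20 of thyroid hormone and retinol handling around Ttr (18 tested in the Prepl and 19 in the PWS-IC comparison) and 14 of lysophosphatidic acid signalling around Enpp2 (12 tested). They were also 13 of folate uptake and use around Folr1 (12 tested), 20 of bone morphogenetic protein and Wnt signalling around Sostdc1 (18 tested), 11 of klotho and fibroblast growth factor signalling (7 tested) and 11 partners of Otx2 (9 and 10 tested). Their median log2 fold changes in the PWS-IC comparison lay between -0.19, for folate, and 0.11, for the Otx2 partners. The number at an unadjusted p under 0.05 by edgeR ran from 0 to 4 a list. The 4 were among the 12 ion and water transport genes tested in the Prepl comparison. In the PWS-IC comparison the most was 3, among the 19 thyroid hormone and retinol genes. Over all genes the number was 1294 of 13722 in the Prepl and 2483 of 13636 in the PWS-IC comparison.

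Markers of other cell types also differed between the PWS-IC groups, where 1.55% of all genes were called lower. At an unadjusted p under 0.05 by edgeR were 2483 of all 13636 genes. Of 13 meningeal genes tested, 5 fell, among them the growth factor gene Igf2 (log2 fold change -0.86 ± 0.128) and the collagen gene Col3a1 (-0.80 ± 0.133), and none rose. Their summed level was 581 to 666 CPM in the deleted libraries, with replicate 4 at 666, against 662 to 1350 CPM in wild types. Of 6 red cell genes 4 fell, with a median of -0.96. Ependymal cells, which line the ventricles next to the plexus, gave no call among 15 genes tested (edgeR; 2 at an unadjusted p under 0.05), with a median of -0.30. Their summed level was 76.4 to 92.3 CPM in the deleted libraries against 93.5 to 109 CPM in wild types. The groups thus lay close without overlap, as 11.8% of single genes tested did not overlap either. No such share was computed for sums over lists. In the astrocyte and microglia lists 1 of 8 and 1 of 7 genes fell, Sox9 (log2 fold change -0.42 ± 0.0998) and Csf1r (-0.63 ± 0.173). Neuronal genes gave no call among 10 (edgeR; 2 at an unadjusted p under 0.05), with a median of 0.06. Replicate 4, high in the choroid plexus genes, was the highest deleted library in the ependymal and meningeal sums but the lowest in the red cell sum. The part of these tissues in the results above was not tested.

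**Figure D5:**
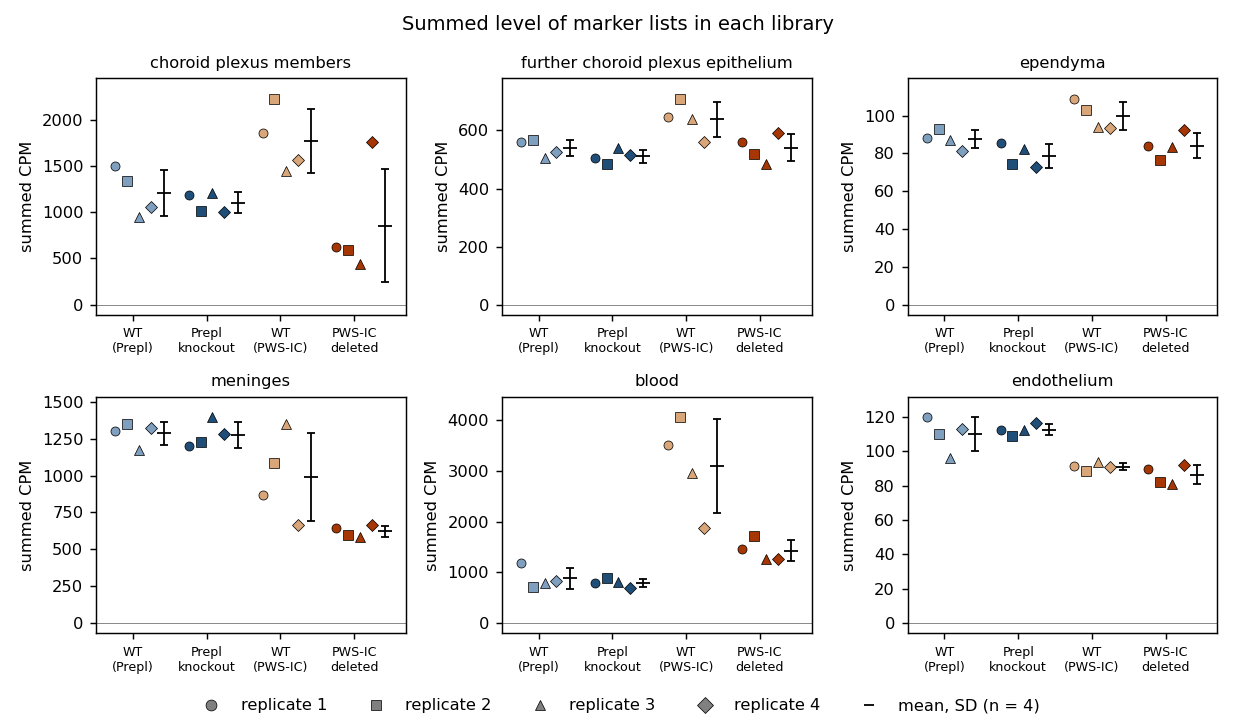
Summed CPM of 6 marker lists (linear axes) in each of 16 libraries, with mean and SD by group. Deleted replicate 4 is at 1766 CPM in the sum of the 9 choroid plexus genes against 435 to 624 in the other deleted libraries, whereas in the red cell sum it is level with them.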

How the data were processed

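RNA of 16 mouse brain libraries was read from the poly(A) end (Lexogen QuantSeq, per the labels' protocols). Reads were aligned with HISAT2 and counted with HTSeq on mm10, per the submitters' processing notes; the sources used here name no versions, strand setting or annotation. The deposited files hold raw counts per gene symbol. Rows that name no gene (53.6% to 61.9% of tabled reads) stayed out of library sizes and tests.

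Counts were fitted with edgeR 4.0.16 (quasi-likelihood, TMM, filterByExpr with a minimum count of 10, Benjamini-Hochberg over all genes, threshold 0.05), 4 against 4 libraries, or 16 for the difference of the effects. DESeq2 1.42.0, limma 3.58.1, other scalings, filters, covariates and fits without each library were tried as alternatives. The fit was tested on simulated data that had the same dispersion for every gene and no library far from the rest. That test therefore does not cover a group such as the deleted libraries. Gene positions are from GENCODE for GRCm38. Depth of 3477624 to 5852716 reads in genes puts 3 reads at 0.513 to 0.863 CPM.

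All 9 genes are reported. From each gene list, called genes were named by smallest p, up to 4; Kcne2 and Prlr were named as levels, and a library singled out was chosen after its values were seen. The genes and lists were chosen with earlier results of these data known. The likeness ranking used genes tested in both comparisons with at least 1 on the log2 CPM scale.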

Additional observations from a re-analysis of the deposited data

Results flagged for a closer look

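In 4 of 36 groups of 4 libraries (9 genes in 4 groups), 1 library stood far from the other 3, with a gap above Dixon's 95% critical value; chance gives about 1 in 20. Ttr in deleted replicate 4 was at 1607 CPM and Folr1 in the same library at 7.25 CPM. Sostdc1 in replicate 2 of the PWS-IC wild types was at 24.0 CPM, where Ttr, Folr1, Aqp1 and Otx2 were also at the highest of that group, Clic6 and Kcnj13 were second, and Enpp2 and Kl were lowest. Clic6 in replicate 1 of the Prepl wild types was at 11.9 CPM, where Ttr was also highest at 1345 CPM.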

How the results depend on the processing

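Of 144 single-gene values under alternatives in each mutant comparison, 137 kept direction and side of the threshold in the Prepl and 107 in the PWS-IC comparison. In the PWS-IC comparison the 3 genes called became 6 with no filter on low counts, 0 with a covariate for the share outside genes (Ttr 0.10, Aqp1 0.42, Otx2 0.77) and 0 to 6 over fits without 1 library. The share outside genes differed by 6.46 to 7.28 points without 1 library, with 0.0571 the smallest p that design allows. The difference of the mutant effects gave 0 to 2 calls without 1 library, and Kcnj13, near 0 in it, ran from -0.94 to 0.32. Otx2 ran from -0.073 to 0.10 without 1 library in the PWS-IC comparison and was 0.0054 with limma; between wild types it ran from -0.0061 to 0.22. In the Prepl comparison a sex term gave 0.11 for Ttr, 0.014 for Enpp2 and 0.10 for Clic6; without 1 library Ttr ran from -0.21 to 0.032, Clic6 from -0.25 to 0.23 and Aqp1 from -0.25 to 0.12. With log2(CPM + 0.25) 3 relations to Ttr passed instead of 5 (Clic6 and Kcnj13 did not), and 2 did without deleted replicate 4, an alternative chosen after seeing the data. The cause of these changes was not tested. Over all genes, the 616 calls of the PWS-IC comparison became 945 with no filter, 999 with 16 libraries in the fit, 1119 with a sex term, 4 with the covariate and 362 to 653 without 1 library. The 36 of the Prepl comparison became 156, 18, 6, 61 and 12 to 103 in that order, and the 112 of the difference became 195 with DESeq2, 235 with a sex term and 67 to 134 without 1 library. With the replicate number as a block 5 of the 8 genes were called in the PWS-IC comparison instead of 3 (Clic6, adjusted p = 0.00706, and Aqp1, 0.0191, by edgeR were added) and 989 genes in all. Same-numbered libraries of that set correlated at -0.05, 0.19, 0.19 and 0.13 in their deviations, not all over 0.1, so the numbers were not taken as pairs. They did match in sex, with replicates 1 and 2 male and 3 and 4 female in both groups. Whether equal numbers mark pairs is not said in the labels. Kl, Kcnj13 and Folr1 are limited by depth, with 0 to 58 reads a library.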
